A study of Mus musculus with 6 samples.

Results

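The genes described here are 10 factors and receptors of blood progenitor cells, Kit, Cd34, Myb, Myc, Mycn, Runx1, Erg, Fli1, Hhex and Ikzf1, chosen by name and found in all 6 count files among 23284 gene symbols. Polyadenylated RNA was sequenced from mouse erythroblasts of C57BL/6 embryos at day E10.5, sorted live for the red cell antigen Ter119 and the transferrin receptor CD71. The 3 Setd8 null libraries came from embryos of the genotype SETD8fl/fl EpoR Cre. Of the 3 controls, replicates 1 and 3 were Setd8 +/+ EpoRCre and replicate 2 was Setd8 fl/fl EpoR WT, so the null group and 2 of the controls carried Cre. EpoRCre places the recombinase under the erythropoietin receptor gene, and cells that never express that gene would keep their Setd8 alleles. Fetal blood is the tissue in the design text, but fetal liver in the labels. How many embryos a library pooled was not stated in either.

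Sample titles of control replicates 1 and 2 and null replicate 1 carry no trailing letter (the unlettered set), while those of control replicate 3 and null replicates 2 and 3 do (the lettered set). Libraries held 7756940 to 21434719 assigned reads, and in a fit with group as a term 17.7% of 10512 tested genes were higher and 10.9% lower in the lettered set. The erythroid identity of the label held in every library, where 14 erythroid markers summed to 215000 to 527000 CPM (reads per 1000000, after TMM scaling of the libraries). Of its 13 tested members 3 fell in null cells and 0 rose with the set as a term, beside 4.16% and 8.65% of all tested genes. The 3 that fell were the embryonic globin Hba-x, Tfrc, which encodes CD71, and Epor, whose locus drives the Cre. With group alone 0 of the 13 passed in either direction. Setd8, the targeted gene, was counted at 73.8, 74.8 and 203 CPM in control replicates 1, 2 and 3 and at 48.8, 100 and 96.2 in the null replicates (log2 ratio -0.83, SE 0.17, edgeR adjusted p = 0.00911 with the set as a term, and 0.702 with group alone). Control replicate 1 was the single control with Y-linked reads in number, 792 against 9 and 0 in replicates 2 and 3, and all 3 null libraries had 2330 to 2814. Sex and genotype were thus partly confounded.

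Blood progenitors are held in an immature, dividing state by transcription factors and by receptors for growth factors. Kit is the receptor of stem cell factor, and CD34 is a surface sialomucin of progenitors and of vessel lining. Runx1, together with the ETS factors Erg and Fli1, is needed for definitive blood stem cells, and Myb is required for definitive but not for primitive red cell formation. Myc and Mycn are basic helix-loop-helix factors that drive growth and ribosome production, Hhex is a homeobox repressor of early blood and endothelium, and Ikzf1 encodes Ikaros, a zinc finger factor best known in lymphoid cells. As erythroblasts mature, most of this programme is switched off.

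In null cells Hhex and Fli1 rose from near 0 and Ikzf1 fell, and the other members did not pass the test or were too low for it. Hhex had 26 reads over the 3 controls and 1581 over the 3 null libraries, Fli1 had 2 and 156, and Ikzf1 had 5037 and 2455. Of the 10 genes, 6 had enough reads to be tested (Myb, Myc, Runx1, Fli1, Hhex and Ikzf1), and Kit, Cd34, Mycn and Erg did not. With the title set as a term, 2 were higher and 1 was lower at an adjusted p of 0.05 (edgeR quasi-likelihood with Benjamini-Hochberg over 10512 genes), beside 8.65% of all tested genes called higher and 4.16% lower. Hhex, Fli1 and Myb met the filter on low counts in all 3 null libraries but not in all 3 controls. They were therefore kept for testing by the null group, and a rise was partly built into their being tested. With group alone 0 of the 6 passed after adjustment (edgeR), beside 1.14% of all genes higher and 0.00951% lower. At an unadjusted p under 0.05 in that fit it was 5 of the 6, beside 1641 of all 10512 genes. Without the filter on low counts all 10 genes were tested, and 2 were higher and 2 lower (Myc besides Ikzf1), beside 5.99% and 3.8% of 19008 genes.

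**Figure D1:**
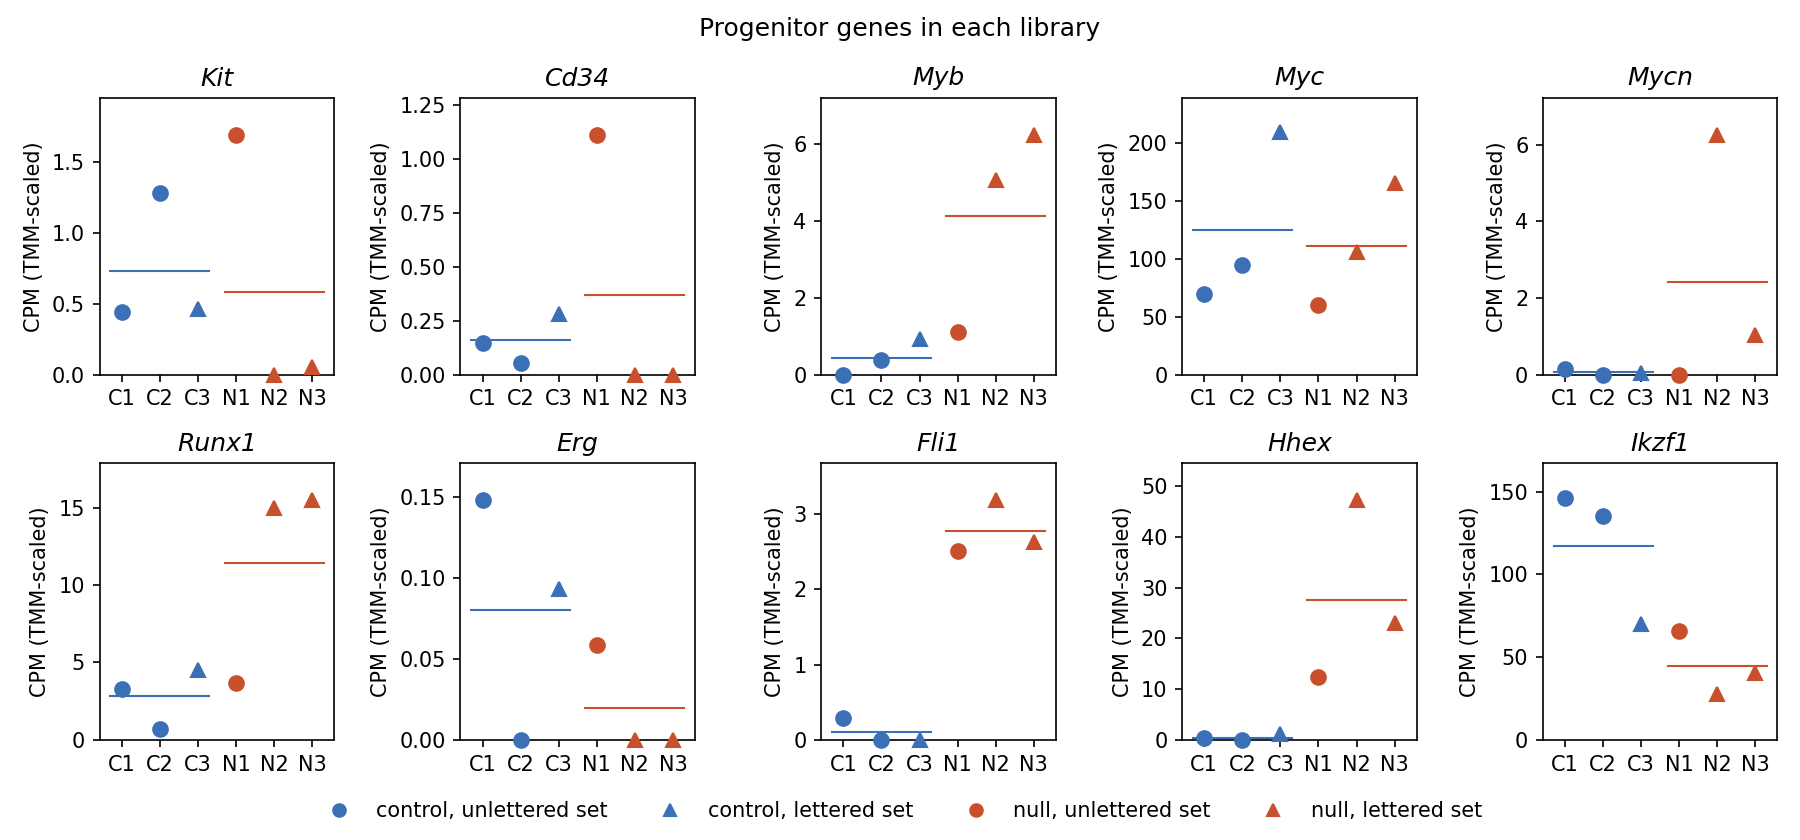
CPM after TMM scaling (vertical axis, linear, from 0, scaled per gene) of the 10 progenitor genes in each library, C for control and N for null with the replicate number, circles for the unlettered and triangles for the lettered title set, lines for group means. Hhex and Fli1 lie near 0 in C1 to C3 and at 12.4 to 47.2 and 2.51 to 3.18 CPM in N1 to N3, and Ikzf1 lies at 70.2 to 146 CPM in controls and 27.7 to 65.9 in null libraries.

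Per length of transcript, Myc and Ikzf1 were the only 2 members at an appreciable level in control erythroblasts. Divided by the exon length of each gene, Myc stood at 51.0 ± 30.6 CPM per kilobase (SD, n = 3) and Ikzf1 at 21.0 ± 7.34, with Myc above Ikzf1 in each control library. Runx1 followed at 0.379 ± 0.261 and Hhex at 0.247 ± 0.277 CPM per kilobase, which did not differ beyond their spread. Kit (0.139 ± 0.0908), Myb (0.115 ± 0.124), Cd34 (0.0613 ± 0.0434), Fli1 (0.0297 ± 0.0515), Erg (0.0232 ± 0.0216) and Mycn (0.0231 ± 0.0270) made up the rest of this order, and the spreads of neighbours overlapped throughout. In null cells the order was Myc (45.3 ± 21.6 CPM per kilobase), Hhex (14.4 ± 9.30), Ikzf1 (8 ± 3.49), Runx1 (1.53 ± 0.897), Myb (1.1 ± 0.713), Mycn (0.865 ± 1.20), Fli1 (0.836 ± 0.108), Cd34 (0.142 ± 0.246), Kit (0.111 ± 0.183) and Erg (0.00562 ± 0.00973). Hhex thus lay below Ikzf1 in every control, but above it in null replicates 2 and 3 and below it in null replicate 1. The values were 6.47, 24.6 and 12 against 11.8, 4.96 and 7.24 CPM per kilobase in null replicates 1, 2 and 3, with overlapping spreads. In a sorted bulk sample, fewer cells of a type and less RNA per cell cannot be told apart.

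Among the surface proteins, Kit was counted in 3, 24 and 10 reads in control replicates 1, 2 and 3 (0.444, 1.28 and 0.465 CPM) and in 29, 0 and 1 reads in null replicates 1, 2 and 3 (1.69, 0 and 0.0516 CPM). Its highest and its lowest values were both in null libraries, and the groups overlapped. Within the unlettered set the null library held 1.60 times the control level (95% exact binomial interval 0.915 to 2.81), and within the lettered set 0.0554 times (0.00128 to 0.389). Intervals of read ratios here cover counting error only. Cd34 was counted in 1, 1 and 6 reads in the controls and in 19, 0 and 0 in the null libraries. The ratio was 14.2 (3.42 to 125) in the unlettered set. In the lettered set the null libraries held no Cd34 read, at least 3.61-fold lower against 3 counts over both of them. Neither gene was tested, and in a fit without the filter on low counts both missed the threshold, with log2 ratios of -1.16 (SE 1.69, edgeR adjusted p = 0.770) for Kit and -0.16 (SE 1.41, adjusted p = 0.977) for Cd34. Of all 19008 genes with a read, 10.9% showed such opposite directions in the sets without overlap. Null replicate 1 held most reads of both genes among the null libraries. It also held 47 reads of the endothelial receptor Kdr, against 0 in null replicates 2 and 3 and 1, 0 and 2 in the controls. The whole list of 16 endothelial markers did not stand out there, at 29.2 CPM in null replicate 1 against 41.1 and 27.7 in null replicates 2 and 3. Of those sums, Egfl7 alone made up 6.65 CPM in null replicate 1 and 23.1 and 17.8 in null replicates 2 and 3. The part of endothelial cells in the reads of Kit and Cd34 was not tested.

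Of the Kit signalling genes, 16 of 19 were tested, 2 rose and 0 fell with the set as a term, beside 8.65% and 4.16% of all tested genes, a share near that background. Their median log2 ratio was -0.20, beside 0.0435 over all tested genes. Ptpn6, the phosphatase SHP-1 that dampens Kit signals, was called higher, at 0.541 ± 0.355 CPM in controls and 7.78 ± 4.05 in the nulls (SD over 3 libraries; edgeR log2 ratio 3.56, SE 0.78, adjusted p = 0.0121), and was kept for testing by the null group. Shc1, an adaptor between receptors and Ras, was called higher as well, at 49.3 ± 20.3 and 104 ± 36.4 CPM (edgeR log2 ratio 0.79, SE 0.19, adjusted p = 0.0183). The gene of the Kit ligand, Kitl, was too low to be tested. With group alone 0 of these genes passed, and with sex beside the title set 0 did. Without null replicate 1 or without control replicate 3 none did with the set as a term. Over all tested genes 162 were higher and 40 lower without null replicate 1, and 625 and 180 without control replicate 3.

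Myb was counted in 0, 7 and 20 reads in control replicates 1, 2 and 3 (0, 0.373 and 0.930 CPM) and in 19, 99 and 121 in null replicates 1, 2 and 3 (1.11, 5.07 and 6.24 CPM). Each null library lay above each control, as in 14.9% of all tested genes, and the 2 null libraries of the lettered set were the highest. Null cells exceeded controls by a log2 ratio of 2.36 among unlettered and 2.46 among lettered libraries, and 2.44 over both sets (SE 1.04, 95% interval 0.17 to 4.72). With an adjusted p of 0.151 (edgeR, unadjusted 0.0372) Myb did not pass, although it did by DESeq2 (adjusted p = 0.0446; range over the 12 alternatives 0.0446 to 0.414). In the GENCODE M21 annotation, exons of Myb overlap those of Gm26577 on the other strand over 491 bases. Those of Cd34 and Gm16897 overlap over 148 bases, and those of Runx1 and Gm26626 over 106. With no strand setting given, reads of such pairs cannot be told apart.

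Myc, the most abundant member, was counted at 69.7, 94.6 and 210 CPM in control replicates 1, 2 and 3 and at 60.6, 106 and 166 in null replicates 1, 2 and 3. The groups overlapped, but in each title set the null libraries were below all controls of that set, with log2 ratios of -0.42 and -0.66. Over both sets the log2 ratio was -0.53 (SE 0.21, 95% interval -0.99 to -0.076), and Myc did not pass (edgeR adjusted p = 0.121; 0.0383 to 0.408 with 1 library left out, 0.0364 to 0.919 over the 12 alternatives, and past the threshold without null replicate 3). Between the sets Myc did differ, 1.26 higher on the log2 scale in the lettered set (SE 0.21, edgeR adjusted p = 0.000764), a larger difference than that between the groups. Mycn, the relative of Myc that is active in early embryos, had 1, 0 and 1 reads in the controls and 0, 122 and 20 in the null libraries (0, 6.25 and 1.03 CPM). The lettered null libraries held nearly all of its reads, and null replicate 1 held none. Against control replicate 3 the ratio of those libraries was 78.6 (95% exact binomial interval 13.9 to 3130). Without the filter on low counts the log2 ratio of Mycn was 3.30 (SE 2.57, edgeR adjusted p = 0.570), which did not pass.

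Most members of the network around Myc pair with Max or bind Myc. Of its 14 tested genes, 2 were called higher and 1 lower (median log2 ratio -0.042). These counts are near the shares over all tested genes, 8.65% and 4.16%. Both genes that rose encode Max partners that act against Myc. Mxd1 was counted at 5.47, 6.65 and 12.4 CPM in control replicates 1, 2 and 3 and at 28.5, 33.6 and 30.3 in the null libraries (log2 ratio 1.78, SE 0.31, edgeR adjusted p = 0.00346). Each null library lay above each control, as in 14.9% of all tested genes. Mxd4 rose from 0, 0 and 1.86 CPM to 3.21, 25.0 and 9.13 (adjusted p = 0.00976, edgeR), and was kept for testing by the null group. Ruvbl1, a DNA helicase that binds Myc, fell from 138 ± 21.1 to 87.7 ± 3.32 CPM (log2 ratio -0.67, SE 0.17, edgeR adjusted p = 0.0265). Max itself did not pass, at 41.7, 56.2 and 21.7 CPM in controls and 38.9, 11.8 and 12.5 in null cells.

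Among textbook targets of Myc, 11 of 23 tested genes fell and 1 rose, and the median log2 ratio was -0.60. Over all tested genes 4.16% were called lower and 8.65% higher, and the median log2 ratio was 0.0435. Nop58, a nucleolar protein of ribosomal RNA processing, fell from 341, 389 and 259 CPM in control libraries to 155, 118 and 116 in null ones (log2 ratio -1.19, SE 0.15, edgeR adjusted p = 0.000552). Polr1b, a subunit of RNA polymerase I, had a log2 ratio of -0.90 (SE 0.24, edgeR adjusted p = 0.0327). For Ppan, a ribosome assembly factor, it was -0.74 (SE 0.17, edgeR adjusted p = 0.0143). The gene that rose was Ldha, lactate dehydrogenase A, with 1090 ± 217 CPM in controls and 1670 ± 185 in nulls (log2 ratio 0.74, SE 0.16, edgeR adjusted p = 0.0106). With group alone 0 of these 23 genes passed, and with sex beside the title set 0 did either. Over all tested genes 1 and 62 were called lower in those fits, against 437 in the main fit. With 1 library left out 1 to 13 fell: 1 without null replicate 1, 2 without control replicate 3, 3 without null replicate 2 and 5 without control replicate 2. The counts over all tested genes called lower were, in the same order, 40, 180, 235 and 213.

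**Figure D2:**
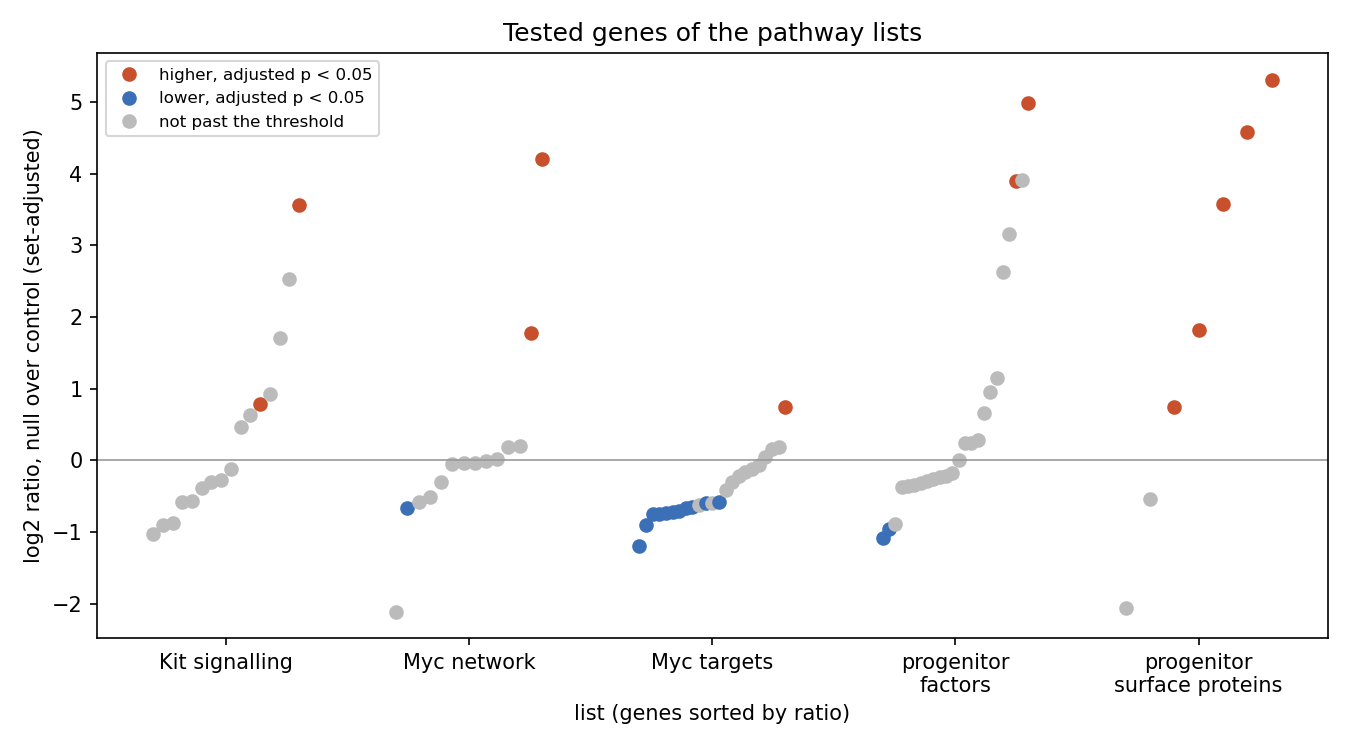
Set-adjusted log2 ratio of null to control (vertical axis) for each tested gene of the 5 lists, sorted within its list along the horizontal axis, orange for genes called higher, blue for genes called lower and grey for genes not past the threshold. The Myc targets hold 11 of the 14 genes called lower, and progenitor surface proteins 5 of the 12 called higher.

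Runx1 was counted in 22, 13 and 97 reads in control replicates 1, 2 and 3 (3.26, 0.692 and 4.51 CPM) and in 63, 292 and 301 in null replicates 1, 2 and 3 (3.68, 15 and 15.5 CPM). Null replicates 2 and 3 stood above all controls, while null replicate 1 lay between the controls. Among unlettered libraries the log2 ratio was 1.2, among lettered ones 1.73, and over both sets 1.39 (SE 0.65, 95% interval -0.021 to 2.80, edgeR adjusted p = 0.186), so that Runx1 did not pass. With sex as a further term its log2 ratio was 0.00957 (adjusted p = 0.998, edgeR; range over the 12 alternatives 0.0535 to 0.998). Erg had 1, 0 and 2 reads in the controls and 1, 0 and 0 in the null libraries, and was not detectable as a difference at this depth.

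Runx1 is transcribed from 2 promoters, which counts per gene do not separate. They are shown because the reads of either group could come from either one. Each is the 250 bases before a start listed by RefSeq (GRCm38.p6, minus strand, 5′ to 3′). Capitals mark matches, on either strand, to 5 motifs. The E-box of Myc and Max was searched as CACGTG. The RUNX motif was searched as TGTGGT. The ETS motif, bound by Erg and Fli1, was searched as CCGGAA. The GATA motif was searched as AGATAA. The motif of Myb was searched as AACGG. No matches overlapped.
Runx1 distal, chr16:92826075-92826324: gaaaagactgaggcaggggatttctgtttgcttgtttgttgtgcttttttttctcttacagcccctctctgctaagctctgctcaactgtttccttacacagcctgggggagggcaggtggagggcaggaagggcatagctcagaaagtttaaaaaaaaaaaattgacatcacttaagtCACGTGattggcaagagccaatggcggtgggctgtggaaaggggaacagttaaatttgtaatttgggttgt
Runx1 proximal, chr16:92697330-92697579: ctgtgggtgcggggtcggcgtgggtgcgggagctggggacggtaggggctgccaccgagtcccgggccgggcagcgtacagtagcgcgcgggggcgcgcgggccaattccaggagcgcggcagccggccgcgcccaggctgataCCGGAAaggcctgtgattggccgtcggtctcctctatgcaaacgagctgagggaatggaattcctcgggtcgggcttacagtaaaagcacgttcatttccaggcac
The distal window held 1 match to the E-box letters, beginning 71 bases before the start, and the proximal window 1 match to the ETS letters, beginning 106 bases before it. Of 32851 windows of this length before RefSeq starts, 6.02% held the E-box letters, 14% RUNX, 12% ETS, 9.99% GATA and 14.5% MYB. A match is a description of the letters and not of a bound site.

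Fli1 was counted in 2, 0 and 0 reads in control replicates 1, 2 and 3 (0.296, 0 and 0 CPM) and in 43, 62 and 51 in null replicates 1, 2 and 3 (2.51, 3.18 and 2.63 CPM). The null libraries stood close together and above all controls in both title sets. Over all reads the ratio was 65.6 (95% exact binomial interval 17.9 to 546), in the unlettered set 32.1 (8.35 to 273), and in the lettered set null cells were at least 20.9-fold higher against 3 counts in control replicate 3. With the set as a term Fli1 passed (edgeR adjusted p = 0.0418). It did not with group alone (0.161), with sex as a further term (0.482) or without control replicate 2 (0.123) or 3 (0.185) or null replicate 1 (0.187), 2 (0.105) or 3 (0.0672). Over the 12 alternatives the adjusted p of Fli1 ranged from 0.00173 to 0.482 (edgeR and DESeq2). Fli1, the ETS factor of megakaryocytes and endothelium, thus stayed a low transcript in null cells.

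Hhex rose the most in number of reads and in CPM among the members, while the fitted ratio of Fli1 and the read ratios of Fli1 and Mycn were larger. It was counted in 2, 1 and 23 reads in control replicates 1, 2 and 3 (0.296, 0.0532 and 1.07 CPM) and in 213, 922 and 446 in null replicates 1, 2 and 3 (12.4, 47.2 and 23.0 CPM). Each null library stood more than 10 times above the highest control. The ratio of reads was 106 (95% exact binomial interval 35.8 to 518) in the unlettered and 32.9 (21.9 to 52.1) in the lettered set, and the fitted log2 ratio over both was 5.53 (SE 0.57, edgeR adjusted p = 0.00015). Hhex missed the threshold with group alone (adjusted p = 0.0623, edgeR) and passed in each of the other 11 alternatives. These included each fit without 1 library (log2 ratio 5.02 to 6.55, adjusted p 9.79e-05 to 0.0193) and the fit with sex as a further term (0.0482). It was also higher in the lettered set (log2 difference 1.90, SE 0.53, edgeR adjusted p = 0.0177). The window before its start is shown because Hhex gained the most reads among the members; it is 76% G or C and held none of the 5 motifs.
Hhex, chr19:37434591-37434840, plus strand: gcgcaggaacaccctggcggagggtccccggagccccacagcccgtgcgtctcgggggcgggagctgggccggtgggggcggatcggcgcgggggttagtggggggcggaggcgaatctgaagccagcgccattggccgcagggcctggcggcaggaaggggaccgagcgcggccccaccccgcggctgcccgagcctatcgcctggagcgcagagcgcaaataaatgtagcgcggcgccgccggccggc

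Ikzf1 fell in null cells. It stood at 146, 135 and 70.2 CPM in control replicates 1, 2 and 3 (987, 2540 and 1510 reads) and at 65.9, 27.7 and 40.4 in null replicates 1, 2 and 3 (1130, 541 and 784 reads). Every null library lay below every control, as in 9.19% of all tested genes, though control replicate 3 and null replicate 1 were close. Within the sets the ratios were nearly equal, -1.09 (unlettered) and -1.06 (lettered) on the log2 scale. The fitted value was -1.07 (SE 0.20, 95% interval -1.50 to -0.63, edgeR adjusted p = 0.00521). Ikzf1 was also lower in the lettered set as a whole (log2 difference -0.98, SE 0.20, edgeR adjusted p = 0.00284). It did not pass with group alone (adjusted p = 0.174), with sex as a further term (0.0978) or without null replicate 1 (0.0907, edgeR; range over the 12 alternatives 8.96e-06 to 0.174). Its relative Ikzf2, which encodes Helios, was called in the other direction, with a mean of 0.548 ± 0.401 CPM in control and 7.72 ± 4.15 in null libraries (edgeR adjusted p = 0.0141). The window before the first listed start of Ikzf1, the single member that fell, is 82% G or C and held none of the 5 motifs.
Ikzf1, chr11:11685675-11685924, plus strand: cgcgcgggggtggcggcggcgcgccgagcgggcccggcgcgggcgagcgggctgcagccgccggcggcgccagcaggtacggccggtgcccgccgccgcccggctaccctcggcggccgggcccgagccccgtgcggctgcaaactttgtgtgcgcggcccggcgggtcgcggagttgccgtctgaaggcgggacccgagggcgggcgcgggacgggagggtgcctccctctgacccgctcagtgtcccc

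**Figure D3:**
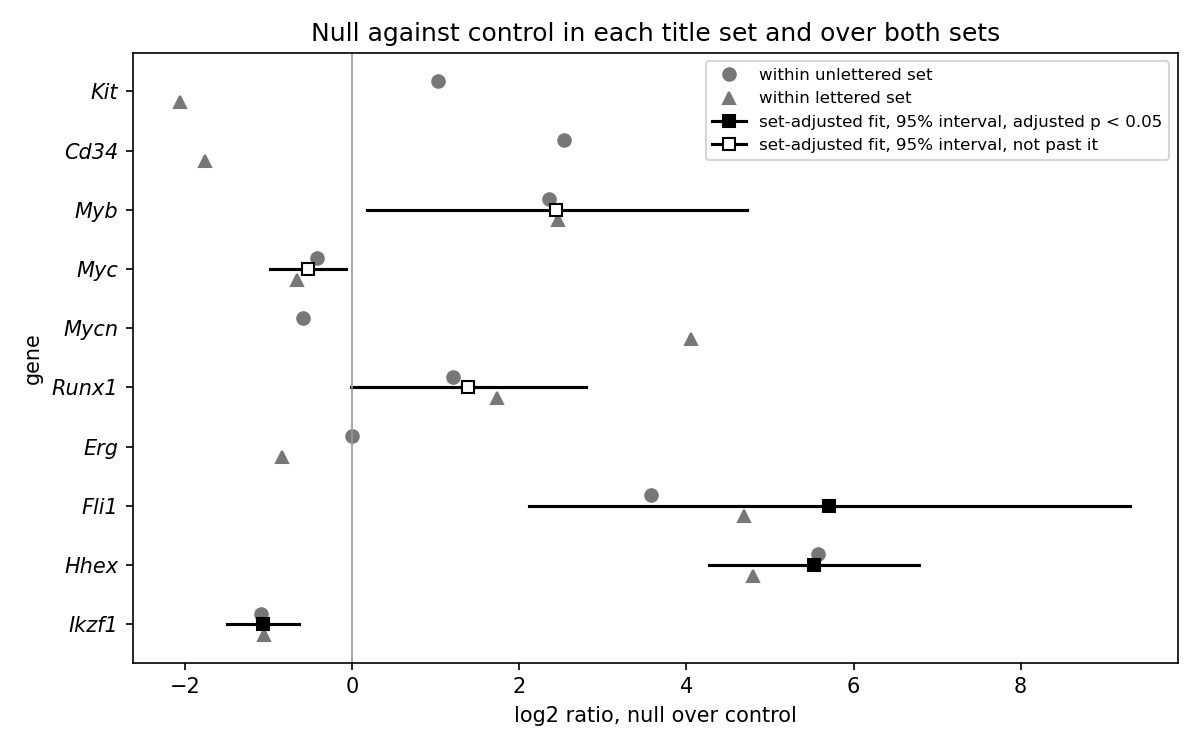
Log2 ratio of null to control (horizontal axis) for the 10 genes, as the difference of mean log2 CPM within the unlettered set (circles) and within the lettered set (triangles), and as the set-adjusted fit with its unadjusted 95% interval for the 6 tested genes (squares, filled where the adjusted p was under 0.05). Ikzf1 has nearly the same ratio in both sets (-1.09 and -1.06), whereas Kit (1.03 and -2.06) and Cd34 (2.53 and -1.76) point in opposite directions.

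The difference between the sets in the effect of the null genotype was tested by an interaction term with 2 residual degrees of freedom. None of the 6 tested members passed it after adjustment, beside 1 of all 10512 genes or 0.00951%. At an unadjusted p under 0.05 (edgeR) it was 0 of the 6 members, beside 758 of all 10512 genes. The intervals were wide: for Hhex the lettered set minus the unlettered set was -1.53 (SE 1.14, 95% interval -4.07 to 1.02), for Runx1 0.77 (-2.09 to 3.63), and for Ikzf1 0.051 (-0.81 to 0.91). By the set term itself Myc and Hhex were higher and Ikzf1 lower in the lettered set, while Runx1, Myb and Fli1 did not pass.

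Of the other progenitor transcription factors, 24 of 35 were tested, 2 rose and 2 fell, and their median log2 ratio was -0.087. The 2 that rose are at the share of all tested genes called higher (8.65%), and 4.16% were called lower. Both were kept for testing by the null group. Gata2, the GATA factor of stem and progenitor cells, had 6, 5 and 1 reads in the controls and 131, 87 and 157 in the null libraries. Its mean level was 0.400 ± 0.436 CPM in controls and 6.73 ± 1.98 in null cells (log2 ratio 4.98, SE 1.05, edgeR adjusted p = 0.0102). The other gene that rose was Ikzf2. Runx1t1, a corepressor first found as a fusion partner of Runx1, fell from 79.3 ± 28.9 to 30.1 ± 17.5 CPM (edgeR log2 ratio -1.08, adjusted p = 0.00742). The ETS factor Gabpa fell from 25.0 ± 9.33 to 14.8 ± 3.86 CPM (adjusted p = 0.0477, edgeR). The erythroid partners of the progenitor factors did not pass: Tal1 stood at 98.9 to 147 CPM in controls and 95 to 139 in null cells, and Gfi1b at 173 to 192 and 199 to 237. For Gfi1b each null library lay above each control, as in 14.9% of all tested genes. Cbfb, the cofactor of Runx1, was counted at 0, 1.38 and 0.0465 CPM in controls and 3.09, 9.12 and 2.68 in null cells, and did not pass (adjusted p = 0.142, edgeR).

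Progenitor surface proteins were mostly too low to be tested, with 7 of 22 tested, of which 5 rose and 0 fell. Beside these counts stand 8.65% of all tested genes called higher and 4.16% called lower. Of the 5, Eng, Csf1r and Tek were kept for testing by the null group, so that their direction was partly built in; Itga2b and Csf2rb were not. Eng, a coreceptor for TGF-beta on endothelium and stem cells, had 1, 0 and 2 reads in the controls and 43, 107 and 32 in the null libraries. Csf1r, the receptor of macrophage growth factor, rose from 0, 0 and 1.58 to 9.04, 6.56 and 18 CPM (edgeR adjusted p = 0.0165), and the angiopoietin receptor Tek from 0.740, 0.0532 and 1.02 to 12.7, 6.05 and 3.10 (adjusted p = 0.0348). Of the genes called higher, Csf1r, Itga2b and Tek also stand on the marker lists of macrophages, megakaryocytes and endothelium. With group alone 0 of the 84 tested genes of the 5 lists passed (edgeR), against 26 with the set as a term. At an unadjusted p under 0.05 with group alone (edgeR) it was 22 of the 84, beside 1641 of all 10512 tested genes. Without null replicate 1 the set-adjusted counts for the 5 lists were 0 higher and 1 lower, beside 162 and 40 over all tested genes.

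Summed markers of other cell types were higher in the null libraries, beside the rise of Hhex, Fli1, Gata2, Ptpn6 and the surface receptors. The sum over 16 endothelial markers was 4.47 to 12.6 CPM in controls and 27.7 to 41.1 in null cells. Over 15 megakaryocyte markers it was 32.1 to 54.7 and 125 to 160 CPM. Over 16 macrophage markers it was 2.34 to 11.7 and 67.1 to 126, and over 14 granulocyte and mast cell markers 0 to 2.88 and 73.2 to 118. Over all tested genes, 8.65% were called higher and 4.16% lower with the set as a term. Of the tested markers, 3 of 4 endothelial and 2 of 8 megakaryocyte ones were called higher. So were 5 of 9 macrophage and 1 of 2 granulocyte and mast cell ones, and 0 were called lower. All 3 of those endothelial, 4 of the 5 macrophage and the 1 granulocyte marker were kept for testing by the null group, which partly fixed their direction. With group alone 2 macrophage markers were called higher, and 0 endothelial, megakaryocyte or granulocyte and mast cell ones, beside 1.14% of all tested genes. Lymphoid markers summed to 0.266 to 1.33 CPM in controls and 1.69 to 4.14 in null cells, with 0 of 10 tested. Hepatic markers summed to 1.48 to 4.46 and 9.08 to 27.2, with 1 of 2 tested called higher and no read of Alb or Fgb. The 2 tested were Krt18, which was called, and Krt8, both kept for testing by the null group. They made up most of the hepatic sum in null replicates 1, 2 and 3, at 18.9, 11.1 and 5.16 CPM (Krt18) and 3.5, 1.49 and 3.71 (Krt8). Afp was highest in control replicate 3, at 2.28 CPM, and Apoa1 in null replicate 1, at 2.45. The endothelial genes called higher were Tek, Pecam1 (0, 0.266 and 0.0465 CPM in controls and 4.08, 2.36 and 2.37 in null cells) and Plvap (0, 0.0532 and 0.651 against 1.4, 6 and 3.66). Esam had no read in controls and 9, 33 and 3 in null libraries, while Cdh5 had 1 read over all 6 libraries and Emcn and Cldn5 had none. Megakaryocyte Itga2b rose to 36.5, 67.0 and 50 CPM from 7.25, 8.78 and 21.0, while Pf4 stood at 0.175, 7.94 and 9.39 against 1.18, 0 and 4.18 and did not pass. Most of the megakaryocyte sum in null cells came from Itga2b, Itgb3 (48, 54.8 and 41.5 CPM) and F2rl2 (31.9, 12.2 and 15.4), of which F2rl2 did not pass. Gp9 was lower in every null library (3.73 to 4.46 against 4.6 to 6.07 CPM), as were 9.19% of all tested genes, and Nbeal2 had a log2 ratio of -0.73. Neither passed, and Ppbp had reads in control replicate 3 alone. Of the macrophage sums in null replicates 1, 2 and 3, Laptm5 made up 29.6, 22.0 and 25.5 CPM, Cd68 10.2, 21.1 and 14.1, and Csf1r, C1qb and other markers the rest. Among granulocyte and mast cell genes Ltf stood at 84.8, 72.0 and 51.6 CPM in the null libraries and at 1.78, 0 and 0.976 in controls. Mpo stood at 5.25, 1.02 and 61.1 CPM against 0.148, 0 and 1.86 and did not pass (edgeR adjusted p = 0.194). Prtn3 had 95 reads in null replicate 3 alone, S100a8 had 69 and 2 reads in null replicates 1 and 3, and Elane, Cpa3, Ms4a2, Prss34 and Cma1 had none in any library. The part of these cells in the rise of the progenitor genes was not tested.

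**Figure D4:**
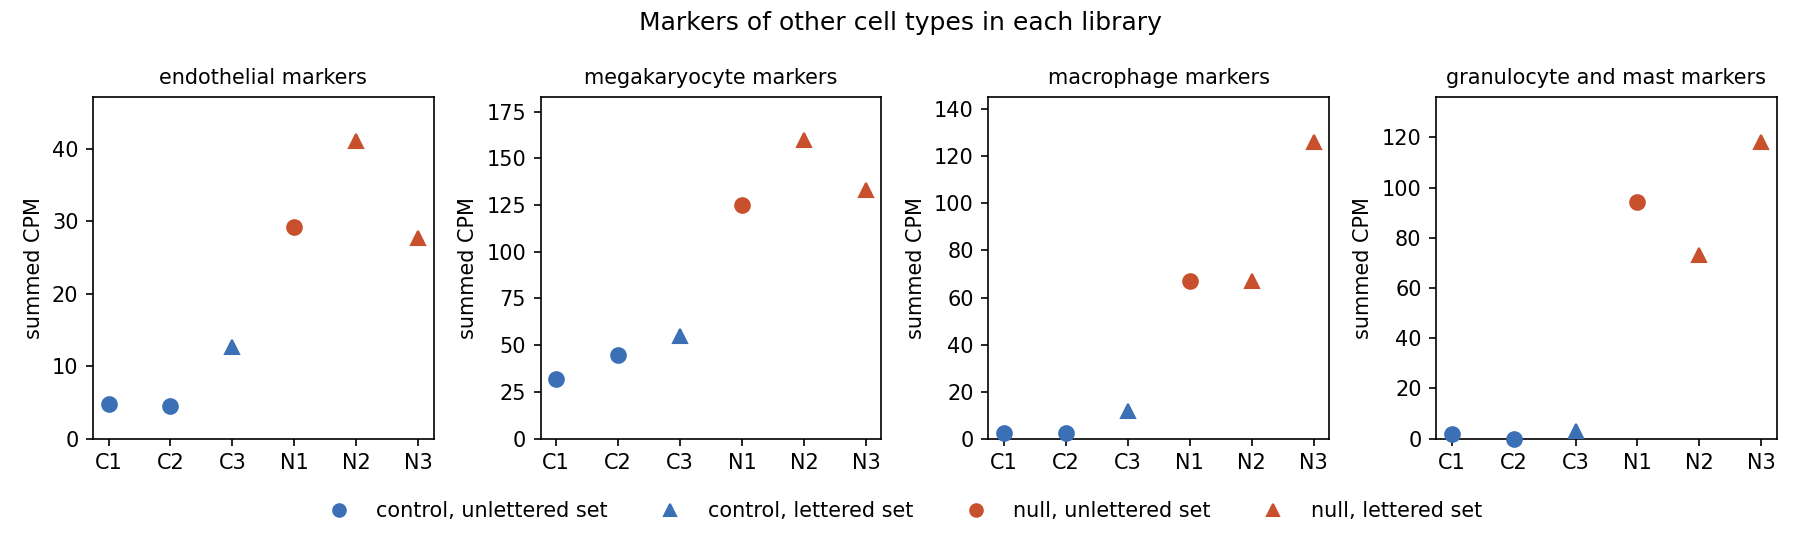
Summed CPM (vertical axes, linear, from 0) of the endothelial, megakaryocyte, macrophage, and granulocyte and mast cell marker lists in each library, C for control and N for null with the replicate number, circles for the unlettered and triangles for the lettered title set. All 3 null libraries lie above all 3 controls in each of the 4 lists, for instance at 27.7 to 41.1 against 4.47 to 12.6 CPM for endothelial markers.

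The genes most like the 3 most abundant members in their pattern over the 6 libraries were found by Pearson's r of log2 CPM, as a description across libraries that share group and title set. For Myc these were Atp13a1 (r = 0.994), Dag1 (0.991) and Trip13 (0.988). For Ikzf1 they were Gm17066 (r = 0.998), Gpatch4 (0.997) and Zfp317 (0.996), and for Hhex B230312A22Rik (r = 0.999), Gsto1 (0.999) and Bdh1 (0.998). The genes like Hhex were present in controls, as Gsto1 at 41.9 ± 8.15 and Bdh1 at 12 ± 7.02 CPM, where Hhex itself was near 0.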

How the data were processed

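Polyadenylated RNA of 6 sorted erythroblast libraries was used, 3 null and 3 control. The values are whole-number read counts per gene symbol, deposited by the authors as 1 unnormalized table per library. Per the submitters' processing notes, the tools were FastQC, Trimmomatic (0.32), TopHat2 (2.1.0), HTSeq (0.6.1) and edgeR, with build mm9. Options and strand setting, not given in the sources used here, remain unknown. The 25 symbols turned into dates in the unlettered tables were restored. The counter's summary lines, which name no gene, were left out of totals; reads without a feature made up 42.9%, 7.72% and 6.07% of the tables of control replicates 1 and 2 and null replicate 1.

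Counts were fitted in R 4.3.3 with edgeR 4.0.16: filterByExpr (at least 10 reads at the median library size in 3 libraries, 10512 genes kept), TMM factors, glmQLFit (robust) and glmQLFTest, 2-sided, with Benjamini-Hochberg adjustment over all kept genes at 0.05. The main model held title set and group (3 residual degrees of freedom). Alternatives were group alone, other scalings, no filter, DESeq2 1.42.0, sex read from Y-linked genes, and each library left out. SE is the log2 ratio divided by the root of the F statistic, and its 95% interval is not adjusted. Within a set, the log2 ratio subtracts the control from the null mean of log2 CPM (prior count 2). The fits were tested on simulated data that varied less than these libraries, whose common coefficient of variation was 0.399. Effects were planted only in genes with a higher mean than Fli1, Kit, Cd34, Mycn and Erg. That test therefore does not cover genes this low or this spread. Exon lengths came from GENCODE M21 (GRCm38), not the build of the counts, so levels per kilobase are approximate; promoters of 8 of the 10 genes matched in RefSeq's table. The members and lists were chosen with earlier results of these data known. Named are all members and, from each list, up to 3 called genes in each direction by size, the 3 genes most like each of the 3 most abundant members, and Setd8; other listed genes (Kitl, Max, Kdr, Tal1, Gfi1b, Cbfb, Itga2b and the markers) were named after their values were seen. Separate embryos for the replicates are not stated in the labels, and p-values rest on a spread among libraries that may be technical.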

Additional observations from a re-analysis of the deposited data

Results flagged for a closer look

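Kit and Cd34 pointed in opposite directions in the title sets: in each, the null library of the unlettered set stood above both of its controls and both null libraries of the lettered set stood below theirs. The log2 ratio of null to control in the lettered set minus that in the unlettered set was -3.09 for Kit and -4.30 for Cd34. The difference was not tested in the main fit, which dropped both genes for low counts, and in a fit of the interaction without that filter neither passed (Kit unadjusted p = 0.166; Cd34 unadjusted p = 0.0421, adjusted p = 0.904, edgeR). Opposite directions without overlap were found in 10.9% of all 19008 genes with a read.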

How the results depend on the processing

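All 6 tested members kept the sign of their log2 ratio in all 12 alternatives; Hhex passed in 11 of them, Ikzf1 in 9, Fli1 in 5, Myc in 2, Myb in 1 and Runx1 in 0. With group alone the counts of members called were 0 higher and 0 lower, of list genes 0 and 0, and of all genes 120 and 1. With sex beside the title set they were 1 and 0, 1 and 1, and 161 and 62; control replicate 1 was then the single control of its sex, and the cause of the loss was not tested. Without the filter on low counts 2 members and 723 genes were lower, and by DESeq2 882 genes were lower; the causes were not tested. With 1 library left out, members called ranged from 1 to 2 higher and 0 to 2 lower, list genes from 0 to 11 higher and 1 to 18 lower (lowest without null replicate 1), and all genes from 162 to 869 higher and 40 to 734 lower. Members higher in the lettered set then ranged from 1 to 3. A prior count of 0.5 in place of 2 moved the ratio within a set for Fli1 to 4.71 (unlettered) and 6.65 (lettered), for Cd34 to -3.40 and for Erg to -2.07 (both lettered), all of them genes with few or no reads in a group. No paired analysis was possible because the labels give no replicate numbers that the groups share. Without control replicate 3 or null replicate 1 a title set no longer holds both groups, so fewer calls there may reflect the lost comparison. In the shallowest library 3 reads correspond to 0.387 CPM and in the deepest to 0.140, which limits Kit, Cd34, Mycn and Erg.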

Other observations

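The controls of the unlettered set differed in genotype, replicate 1 with Cre and wild-type Setd8 and replicate 2 with floxed alleles and no Cre, with 1 library each and therefore no test. Ikzf1 was at 146 and 135 CPM in them, a ratio of reads of 1.08 (95% exact binomial interval 1 to 1.16, counting error only). Myc was at 69.7 and 94.6 CPM, a ratio of 0.738 (0.665 to 0.817), and Runx1 at 3.26 and 0.692 CPM, a ratio of 4.71 (2.27 to 10.2). Kit was counted in 3 and 24 reads, a ratio of 0.348 (0.0671 to 1.15).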
